A study of Mus musculus with 10 samples.

Results

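Intercalated cells are the acid-base transporting cells of the connecting tubule and collecting duct, and 7 genes that mark them were followed in whole kidneys from mice with an activating change in RagC. The genes were chosen by name, with earlier results of these data known. They are the anion exchangers of the type A and type B cells (Slc4a1, Slc26a4 and Slc4a9) and the channel Aqp6. The others are the transcription factor Foxi1 and the receptors Insrr and Oxgr1. All 7 were among the 13837 genes of the table and all 7 passed the filter on low values, being 7 of the 13197 genes tested. The type A set was Slc4a1 and Aqp6, the type B set was Slc26a4, Slc4a9, Insrr and Oxgr1, and Foxi1 was taken as common to both.

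Kidneys were taken at 3 months from 5 Rragc+/+ mice and from 5 mice heterozygous for Rragc S74N (KI/+), with 1 library per mouse. RagC is a GTPase that signals amino acid supply to the kinase mTORC1, and the knock-in places the amino acid change in exon 1 of the endogenous gene of C57BL/6 mice, with silent changes beside it, so that the allele is present in every cell of the body and a kidney difference need not begin in the kidney. The labels do not give the sex of these mice or their litters, and p-values measure the spread between these 10 mice. Libraries were made by the QuantSeq 3′ method, which gives about 1 read per transcript near its 3′ end, and held 6501552 to 7996087 reads on genes. Values are normalized counts, which are reads divided by a size factor of the library.

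Type A cells secrete acid. They place a proton pump in the apical membrane and return bicarbonate to the blood through AE1, the product of Slc4a1, in the basolateral membrane. Type B cells do the opposite, secreting bicarbonate and taking up chloride through pendrin, the product of Slc26a4, with AE4, the product of Slc4a9, in the basolateral membrane. Foxi1 is the forkhead factor on which both types depend. Aqp6 is a channel of intracellular vesicles of type A cells. Insrr is a receptor of the insulin receptor family that is activated by alkaline pH. Oxgr1 is a receptor for α-ketoglutarate that acts on chloride and bicarbonate exchange in type B cells.

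The knock-in changes the protein and is not visible in a 3′ count. Rragc itself had 346.9, 247.2, 243.8, 292.6 and 296.8 normalized counts in the Rragc+/+ mice and 199.2, 248.1, 214.4, 229.3 and 188.8 in the KI/+ mice, with a log2 difference of -0.40 (SE 0.12, adjusted p = 0.0678) that did not pass. The summed urothelial genes stood apart in 1 library, at 481.7 normalized counts in KI/+ mouse 5 against 47.13 to 153.3 in the other mice, so results are also given without that mouse, a choice made after the values were seen. Without it, 2 of the 7 genes were lower in place of 3 (Slc4a1 and Aqp6). Library codes end in 38 to 40, 53 to 58 and 66, and were taken as 2 runs. The first, 38 to 40, holds +/+ mice 1 and 2 and KI/+ mouse 1, and the second the remaining mice. KI/+ mouse 5, at 66, was placed in the second run although a gap parts it from the others. The codes do not say whether a run was a day, a plate or a preparation.

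Promoter sequence was in the RefSeq tables for 4 of the 7 genes (Aqp6, Foxi1, Oxgr1 and Slc26a4). The 250 bases before the start of Aqp6 (chr15:99600950-99601199, plus strand), Oxgr1 (chr14:120042436-120042685, minus strand) and Slc26a4 (chr12:31559985-31560234, minus strand) are shown 5′ to 3′ on the strand of the gene, in GRCm38.p6, because Aqp6 and Oxgr1 fell in KI/+ kidneys and Slc26a4, the pendrin gene of type B cells, did not. Capitals mark the motifs that were found.
Aqp6: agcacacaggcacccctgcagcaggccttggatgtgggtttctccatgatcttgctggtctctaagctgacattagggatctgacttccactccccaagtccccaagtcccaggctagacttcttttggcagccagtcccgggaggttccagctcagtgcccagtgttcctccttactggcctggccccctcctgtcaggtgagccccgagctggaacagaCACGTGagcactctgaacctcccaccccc
Oxgr1: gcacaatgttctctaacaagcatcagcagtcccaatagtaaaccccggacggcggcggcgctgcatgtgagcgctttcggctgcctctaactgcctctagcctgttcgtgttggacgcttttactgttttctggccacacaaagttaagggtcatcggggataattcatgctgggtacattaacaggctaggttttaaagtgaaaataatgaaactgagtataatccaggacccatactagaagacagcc
Slc26a4: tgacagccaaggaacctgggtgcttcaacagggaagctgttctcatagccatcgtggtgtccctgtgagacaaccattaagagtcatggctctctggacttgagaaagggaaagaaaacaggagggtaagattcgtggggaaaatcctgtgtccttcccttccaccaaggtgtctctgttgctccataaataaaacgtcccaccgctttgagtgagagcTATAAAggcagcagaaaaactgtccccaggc
The search was for CACGTG, the E-box letters read by TFEB and its relatives, whose entry into the nucleus RagC controls, for TATAAA, and for TGTTTA, a core read by forkhead factors, each on both strands. The motifs share no overlapping letters at the sites found. The Aqp6 window held CACGTG at 24 to 29 bases before the RefSeq start, which was also present in 6.02% of 32851 promoters of that length. The Slc26a4 window held TATAAA at 26 to 31 bases before the start, present in 12.4% of all promoters. The Oxgr1 and Foxi1 windows held none of the 3 motifs, and TGTTTA, present in 12.0% of all promoters, was in none of the 4 windows. A match describes letters only, and no binding was measured.

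In the GENCODE vM21 annotation of GRCm38, which is not the build of the counts, Slc4a1 spans chr11:102348824-102366203 on the minus strand and Aqp6 spans chr15:99601400-99605477 on the plus strand. Slc26a4 spans chr12:31519827-31559969 (minus strand), Insrr chr3:87796951-87816101 (plus strand), Oxgr1 chr14:120019585-120042435 (minus strand) and Foxi1 chr11:34204338-34208089 (minus strand). The GENCODE gene start of Aqp6 lies 200 bases downstream of the RefSeq start used for its promoter window, and that of Slc26a4 differs by 15 bases from its own. The counted reads lie near the 3′ ends of these genes.

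Both type A genes fell in KI/+ kidneys, and of the 4 type B genes only Oxgr1 passed the test, also as a fall. Of the 7 genes, 3 were lower, 0 were higher and 4 did not pass. Among all 13197 genes tested, 2.02% were called lower and 1.67% higher. The 7 genes were chosen with earlier results of these data known, so these shares are a background and no test of the set. The values of the 3 lower genes did not overlap between genotypes, which was so, in that direction, for 2.71% of all genes tested. The median log2 difference of the 7 genes was -0.33, with 5 below and 2 above 0, beside 0.0005 over all genes tested, 49.9% of which were below 0. In RNA of a whole kidney, fewer cells of a type and less RNA per cell cannot be told apart.

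Aqp6 had the lowest p of the 7 genes, at rank 134 of 13197. It had 314.0, 319.3, 332.3, 244.4 and 313.9 normalized counts in the 5 +/+ mice and 219.1, 175.6, 220.7, 162.1 and 154.7 in the 5 KI/+ mice. The highest KI/+ value lay below the lowest +/+ value, which came from +/+ mouse 4. The mean went from 304.8 ± 34.57 to 186.4 ± 31.45 (SD, n = 5 each), a ratio of 0.612. The log2 difference was -0.71 (SE 0.12, 95% interval -0.97 to -0.45, adjusted p = 0.00192).

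Slc4a1, the exchanger that defines type A cells in the kidney, had 144.2, 123.6, 148.6, 130.8 and 124.9 normalized counts in +/+ mice and 107.2, 77.12, 90.38, 99.83 and 74.92 in KI/+ mice. Every KI/+ kidney was below every +/+ kidney, with KI/+ mice 2 and 5 the lowest. The mean went from 134.4 ± 11.36 to 89.89 ± 14.01 (SD, n = 5 each), a ratio of 0.669. The log2 difference was -0.59 (SE 0.13, 95% interval -0.86 to -0.31, adjusted p = 0.0137), at rank 262 of 13197. Without KI/+ mouse 5 the differences were -0.52 for Slc4a1 (adjusted p = 0.0323) and -0.65 for Aqp6 (adjusted p = 0.0045).

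Slc4a1 is also the band 3 gene of red blood cells, and its kidney and erythroid transcripts share their 3′ end, so reads of blood left in the kidney count toward it. Of 10 erythroid genes, 6 were measured, of which 1 was higher, 1 was lower and the median log2 difference was -0.06. Hba-a1, an alpha globin, fell by 0.60 on the log2 scale (adjusted p = 0.0477). Slc25a37, the iron importer of mitochondria in developing red cells, rose by 0.41 (adjusted p = 0.041), and Alas2, the erythroid enzyme of haem synthesis, differed by 0.22 (adjusted p = 0.539). The summed level of the 6 genes was 23810 to 31140 normalized counts in +/+ and 19320 to 25530 in KI/+ kidneys, and none of the 6 was at 0. Without KI/+ mouse 5, which had the lowest erythroid sum, 0 of the 6 passed, with Hba-a1 at -0.47 (adjusted p = 0.0984) and Slc25a37 at 0.38 (adjusted p = 0.0808). Hba-a1 has a near-identical copy, so its own value is uncertain. Across the 10 mice, deviations of Slc4a1 and of the erythroid sum from their genotype means had r = 0.22, as a description. The part of blood in the Slc4a1 difference was not tested.

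Oxgr1 was the type B gene that passed. It had 125.1, 141.4, 134.9, 127.6 and 145.2 normalized counts in +/+ mice and 104.3, 121.7, 80.92, 85.0 and 70.06 in KI/+ mice. The groups did not overlap, although KI/+ mouse 2 at 121.7 lay close to +/+ mouse 1 at 125.1. The mean went from 134.8 ± 8.648 to 92.41 ± 20.54 (SD, n = 5 each), a log2 difference of -0.57 (SE 0.14, 95% interval -0.86 to -0.27, adjusted p = 0.0339). This call was the least secure of the 3, since omitting any of 7 mice in turn ended it. The adjusted p was 0.0695, 0.0637, 0.0661 and 0.10 without +/+ mice 2, 3, 4 and 5, and 0.0675, 0.0741 and 0.0734 without KI/+ mice 3, 4 and 5, with log2 differences between -0.58 and -0.47 in these cases.

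Slc26a4, the pendrin gene, had 236.4, 196.5, 159.9, 215.5 and 205.0 normalized counts in +/+ mice and 258.0, 227.6, 215.4, 293.6 and 214.1 in KI/+ mice. All 5 KI/+ values were above the +/+ mean and 2 were above the highest +/+ value, and the groups overlapped. The log2 difference of 0.25 (SE 0.12, 95% interval -0.0020 to 0.51, adjusted p = 0.331) did not pass. That interval leaves out the estimates of Aqp6 and Slc4a1, and equally those of Foxi1 and of the type B genes Oxgr1 and Slc4a9.

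Slc4a9, the other type B exchanger, lay on the opposite side. It had 169.8, 161.9, 114.5, 162.9 and 140.9 normalized counts in +/+ mice and 137.5, 118.9, 83.02, 142.3 and 119.7 in KI/+ mice, so that 1 KI/+ mouse was below the lowest +/+ mouse. The log2 difference was -0.33 (SE 0.15, 95% interval -0.65 to -0.0070, adjusted p = 0.310) and did not pass. The lowest values were those of +/+ mouse 3 and KI/+ mouse 3, whose shared number is only a name.

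Insrr had the lowest level of the 7 genes. It had 41.99, 24.01, 38.56, 18.22 and 17.08 normalized counts in +/+ mice and 40.79, 45.53, 43.09, 33.61 and 28.22 in KI/+ mice, from 16 to 49 reads a library. The range within +/+ mice was wider than the gap between the genotype means of 27.97 ± 11.6 and 38.25 ± 7.159 (SD, n = 5 each). The log2 difference was 0.51 (SE 0.25, 95% interval -0.02 to 1.04, adjusted p = 0.357).

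Foxi1 was the gene with the smallest difference. It had 63.9, 47.13, 48.76, 50.38 and 51.25 normalized counts in +/+ mice and 40.79, 52.96, 44.14, 55.35 and 50.6 in KI/+ mice. The groups overlapped over most of their range, with means of 52.29 ± 6.681 and 48.77 ± 6.111 (SD, n = 5 each). The log2 difference was -0.10 (SE 0.15, 95% interval -0.43 to 0.23, adjusted p = 0.833). The estimates of Slc4a1, Aqp6 and the type B gene Oxgr1 lay below that interval. Those of the type B genes Slc26a4 and Insrr lay above it, and that of Slc4a9 lay within it. The differences between these genes and Foxi1 were not tested. With 42 to 70 reads a library, a smaller difference in either direction could not be resolved.

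**Figure D1:**
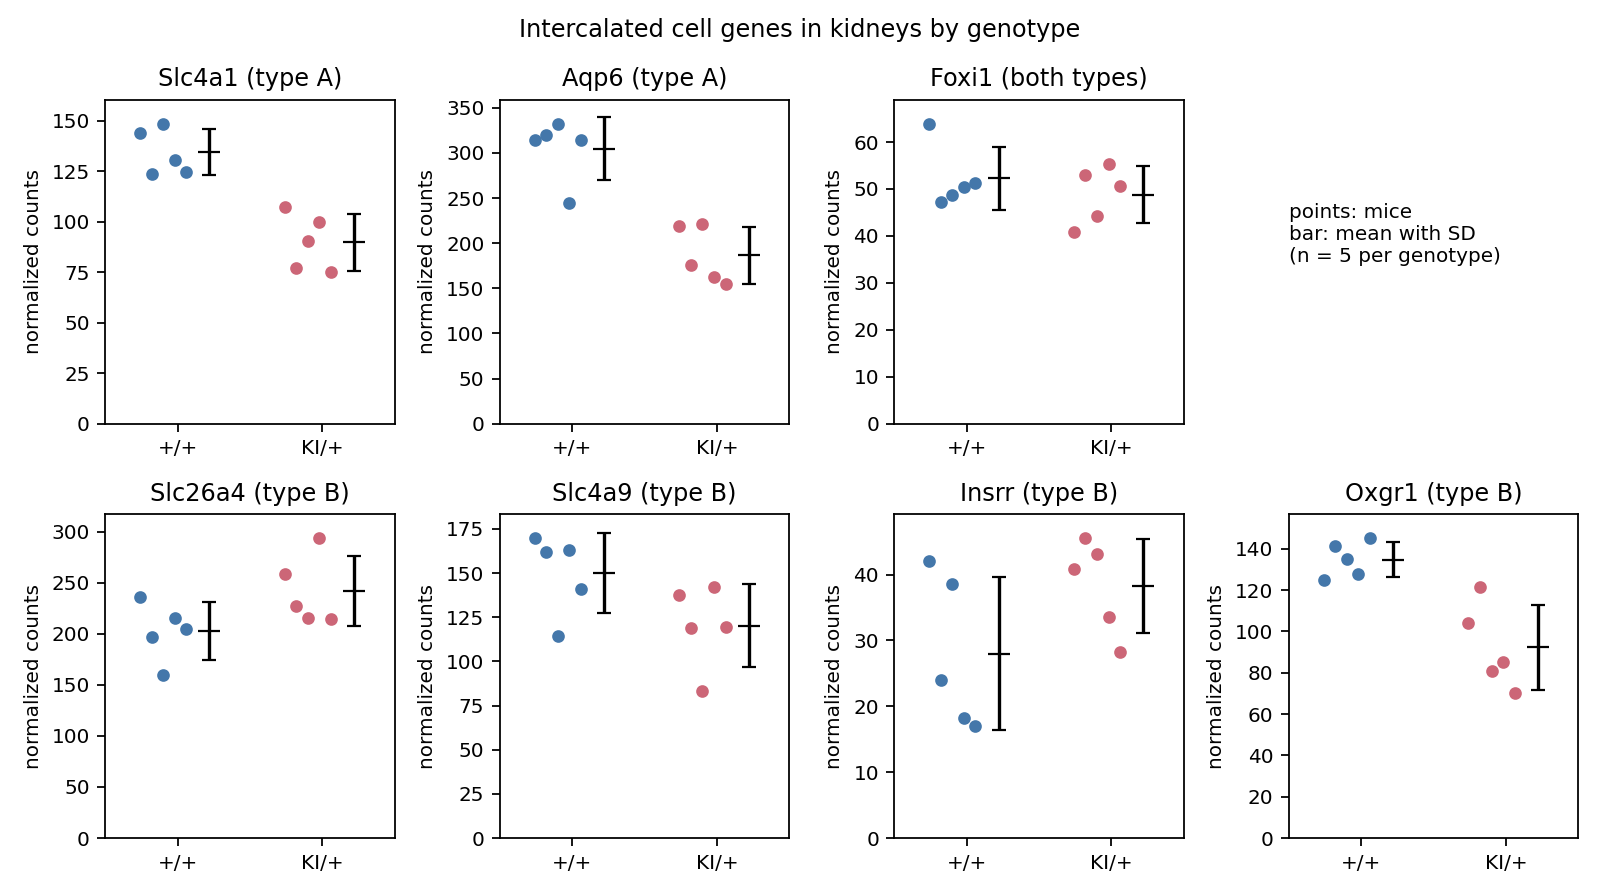
Normalized counts (y axis, from 0, a scale of its own in each panel) of the 7 intercalated cell genes in 5 +/+ and 5 KI/+ kidneys, with a point for each mouse and the mean with SD beside them. Slc4a1, Aqp6 and Oxgr1 show no overlap between genotypes, while Slc26a4, Slc4a9, Insrr and Foxi1 overlap.

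Because a 3′ library gives a count that does not grow with transcript length, the levels of the 7 genes can be set in order on the scale of normalized counts, apart from differences in how well each 3′ end is captured. In +/+ kidneys the order was Aqp6 (304.8), Slc26a4 (202.7), Slc4a9 (150.0), Oxgr1 (134.8), Slc4a1 (134.4), Foxi1 (52.29) and Insrr (27.97). Ranges over mice overlapped between Slc26a4 and Slc4a9, between Slc4a9 and Oxgr1 and between Oxgr1 and Slc4a1, and were separate between the other neighbours. In KI/+ kidneys Slc26a4 (241.7) stood first and Aqp6 (186.4) second, followed by Slc4a9 (120.3), Oxgr1 (92.41), Slc4a1 (89.89), Foxi1 (48.77) and Insrr (38.25). There, the ranges overlapped between Slc26a4 and Aqp6, Slc4a9 and Oxgr1, Oxgr1 and Slc4a1, and Foxi1 and Insrr.

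The comparison of type A with type B was made within each library, as the log2 ratio of a type A gene to a type B gene, which the size factor cannot change apart from the small pseudocount. With 2 type A and 4 type B genes there were 8 ratios, each tested by a two-sided exact permutation test over the 10 mice, for which the smallest p is 0.00794. All 8 had a lower mean in KI/+ kidneys and 4 passed after adjustment over the 8. The 4 were the ratios to Slc26a4 and to Insrr, and in each the genotypes did not overlap. The 8 ratios share genes and are not independent, and each contains a numerator already described as lower.

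The ratio of Slc4a1 to Slc26a4 sets the basolateral exchanger of type A cells against the apical exchanger of type B cells. On the log2 scale it was -0.71, -0.66, -0.11, -0.72 and -0.71 in +/+ mice and -1.26, -1.55, -1.24, -1.55 and -1.50 in KI/+ mice. In all 10 kidneys Slc26a4 was the higher of the pair, and it was further above Slc4a1 in every KI/+ kidney than in any +/+ kidney. The mean went from -0.58 ± 0.27 to -1.42 ± 0.16 (SD, n = 5 each), which corresponds to a ratio of 0.669 in +/+ and 0.374 in KI/+ kidneys. The difference was -0.84 (SE 0.14, exact p = 0.00794, adjusted p = 0.0159).

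Aqp6 to Slc26a4 was the pair that changed order. The log2 ratio was 0.41, 0.70, 1.05, 0.18 and 0.61 in +/+ mice and -0.23, -0.37, 0.03, -0.85 and -0.47 in KI/+ mice. Aqp6 was above Slc26a4 in 5 of 5 +/+ kidneys and below it in 4 of 5 KI/+ kidneys. The difference was -0.97 (SE 0.21, exact p = 0.00794, adjusted p = 0.0159).

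The ratios to Insrr had the largest differences and rest on its low counts. Slc4a1 to Insrr went from 2.31 ± 0.48 to 1.22 ± 0.32 (SD, n = 5 each) on the log2 scale, a difference of -1.10 (SE 0.26, exact p = 0.00794, adjusted p = 0.0159). Aqp6 to Insrr went from 3.48 ± 0.51 to 2.26 ± 0.20, a difference of -1.22 (SE 0.24, exact permutation p = 0.00794, adjusted p = 0.0159). No KI/+ kidney reached the lowest +/+ kidney in either ratio.

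The ratios to Slc4a9 and to Oxgr1 did not pass. Slc4a1 to Slc4a9 differed by -0.26 (SE 0.20, exact p = 0.254, adjusted p = 0.339) and Aqp6 to Slc4a9 by -0.39 (SE 0.26, exact p = 0.175, adjusted p = 0.279). Both were highest in +/+ mouse 3 and in KI/+ mouse 3, and without KI/+ mouse 3 both passed, at -0.39 and -0.58 (exact permutation test, adjusted p = 0.0423 each). Slc4a1 to Oxgr1 was close to 0 in both genotypes, with a difference of -0.02 (SE 0.18, exact p = 0.921), and Aqp6 to Oxgr1 differed by -0.15 (SE 0.16, exact p = 0.429). The type A genes were thus lower relative to Slc26a4 and Insrr, and no such difference was detected relative to Slc4a9 or Oxgr1.

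The library codes bear on these ratios. The 4 ratios are given here in the order Slc4a1 to Slc26a4, Slc4a1 to Insrr, Aqp6 to Slc26a4 and Aqp6 to Insrr. Mice were permuted only within their code run, with the differences of the 2 runs averaged by their numbers of mice. This gave -0.84, -1.12, -0.96 and -1.24, with exact p = 0.00952 and adjusted p = 0.019 for each. That exact p is the smallest these permutations allow. Without overlap of the genotypes the observed split was the most extreme in its direction, so this p adds no support. The second run alone holds 3 +/+ and 4 KI/+ mice and gave -0.95, -1.32, -1.03 and -1.40, with an exact p of 0.0571, which is the smallest that 3 against 4 mice allow. The first run holds 2 +/+ mice and 1 KI/+ mouse, too few for a value of its own. Without KI/+ mouse 5 the 4 ratios were -0.82, -1.14, -0.95 and -1.26, each with adjusted p = 0.0317 by the exact permutation test. Since the genotypes did not overlap in these ratios, leaving out a mouse could not end the call.

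**Figure D2:**
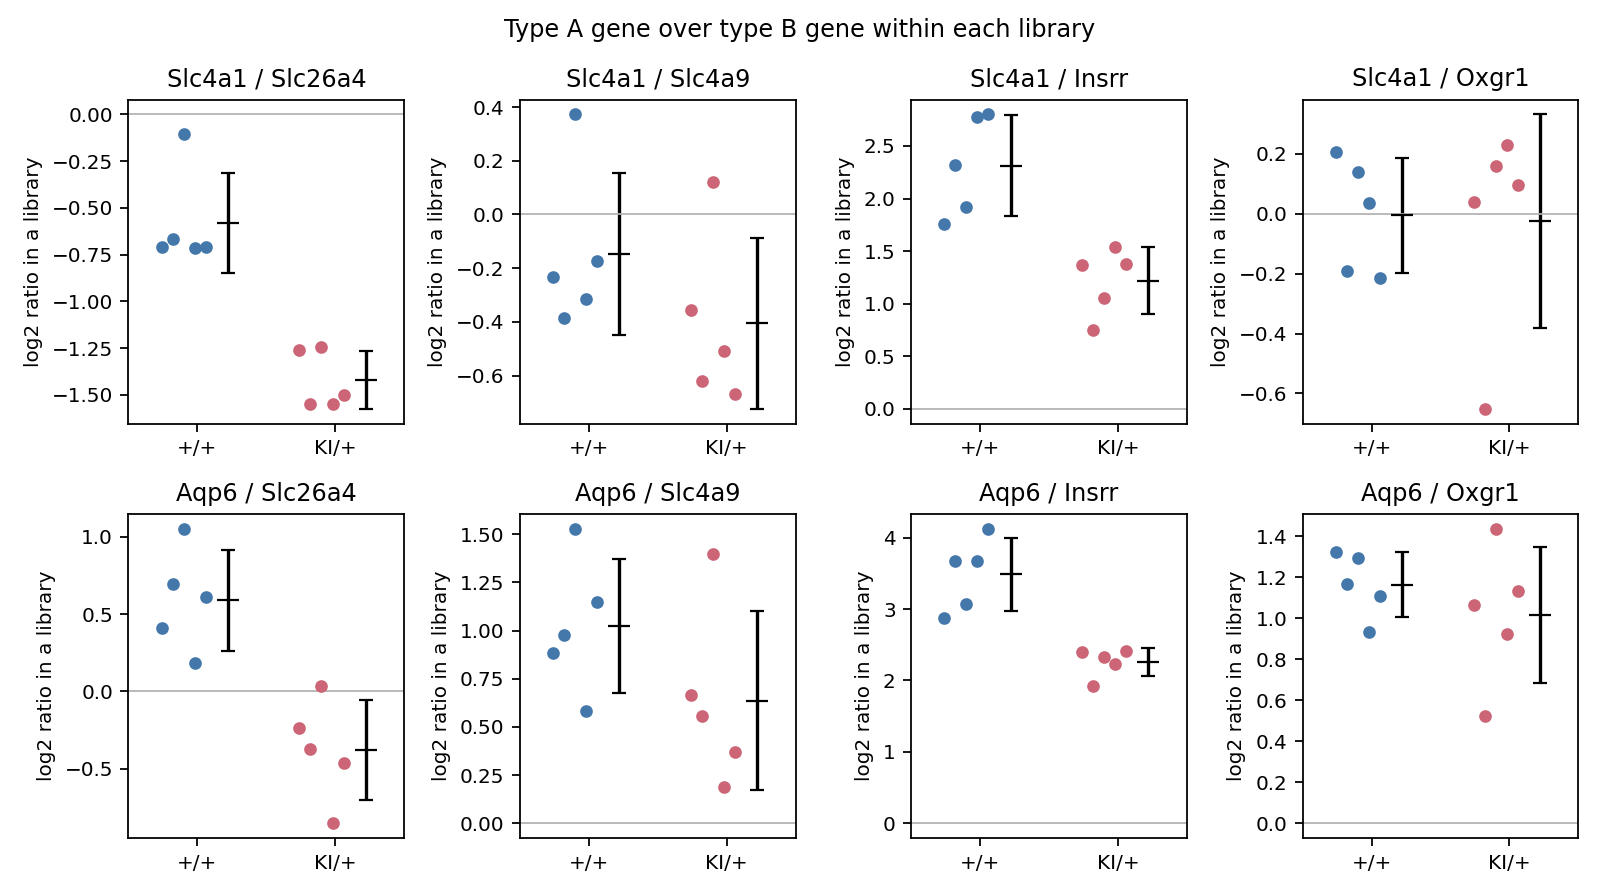
Log2 ratio of a type A gene to a type B gene in each library (y axis, a scale of its own in each panel, with a grey line at 0) for 5 +/+ and 5 KI/+ kidneys, with a point for each mouse and the mean with SD. The ratios to Slc26a4 and Insrr are lower in every KI/+ kidney than in any +/+ kidney, and the ratios to Slc4a9 and Oxgr1 overlap.

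Further intercalated cell genes were counted from lists of the same cells. Of 4 other genes used for type A cells, 3 were measured (Kit, Slc26a7 and Adgrf5) and 0 passed. Slc26a7, a basolateral chloride and bicarbonate exchanger of type A cells, had means of 19.71 in +/+ and 9.794 in KI/+ kidneys, with a log2 difference of -1.07 (adjusted p = 0.14). The adhesion receptor Adgrf5 differed by -0.06 and Kit by 0.16. Whole-kidney counts of these genes include reads of any other cell that makes them.

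Of 16 genes for proton pump subunits, carbonic anhydrases, ammonia transporters and other proteins of intercalated cells, 15 were measured, of which 2 were lower and 0 higher, with a median log2 difference of -0.16. Car12, a membrane carbonic anhydrase, had 834.6 to 979.1 normalized counts in +/+ and 487.6 to 620.7 in KI/+ mice. The ranges did not overlap, and its log2 difference of -0.81 (SE 0.09, adjusted p = 1.65e-05) was larger than that of any of the 7 genes. Atp6v0d2, a subunit of the membrane sector of the proton pump, had 226.4 to 290.4 in +/+ and 159.8 to 201.8 in KI/+ mice, with a log2 difference of -0.45 (SE 0.10, adjusted p = 0.0194). Both were also lower without KI/+ mouse 5, at -0.78 (adjusted p = 3.37e-05) for Car12 and -0.46 (adjusted p = 0.0265) for Atp6v0d2. Both genes are also made outside intercalated cells.

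The other proton pump subunits did not pass. Atp6v1b1, the B1 subunit that intercalated cells use, differed by 0.16 (adjusted p = 0.447), Atp6v0a4 by -0.0088 (adjusted p = 0.981) and Atp6v1g3 by -0.23 (adjusted p = 0.251). The ammonia transporters Rhcg and Rhbg differed by 0.01 and 0.24, and the cytosolic carbonic anhydrase Car2 by -0.06, none of them past the threshold. Slc4a8, a sodium-dependent exchanger of type B cells, had means of 30.46 and 19.08 with all KI/+ values below all +/+ values, but its log2 difference of -0.66 (adjusted p = 0.0794) did not pass. For these pump and ammonia transporter genes no difference was called, in the same kidneys in which both type A genes were lower. In whole-kidney RNA, reads from other cells that make a gene cannot be set apart, so unchanged intercalated cells were not shown.

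**Figure D3:**
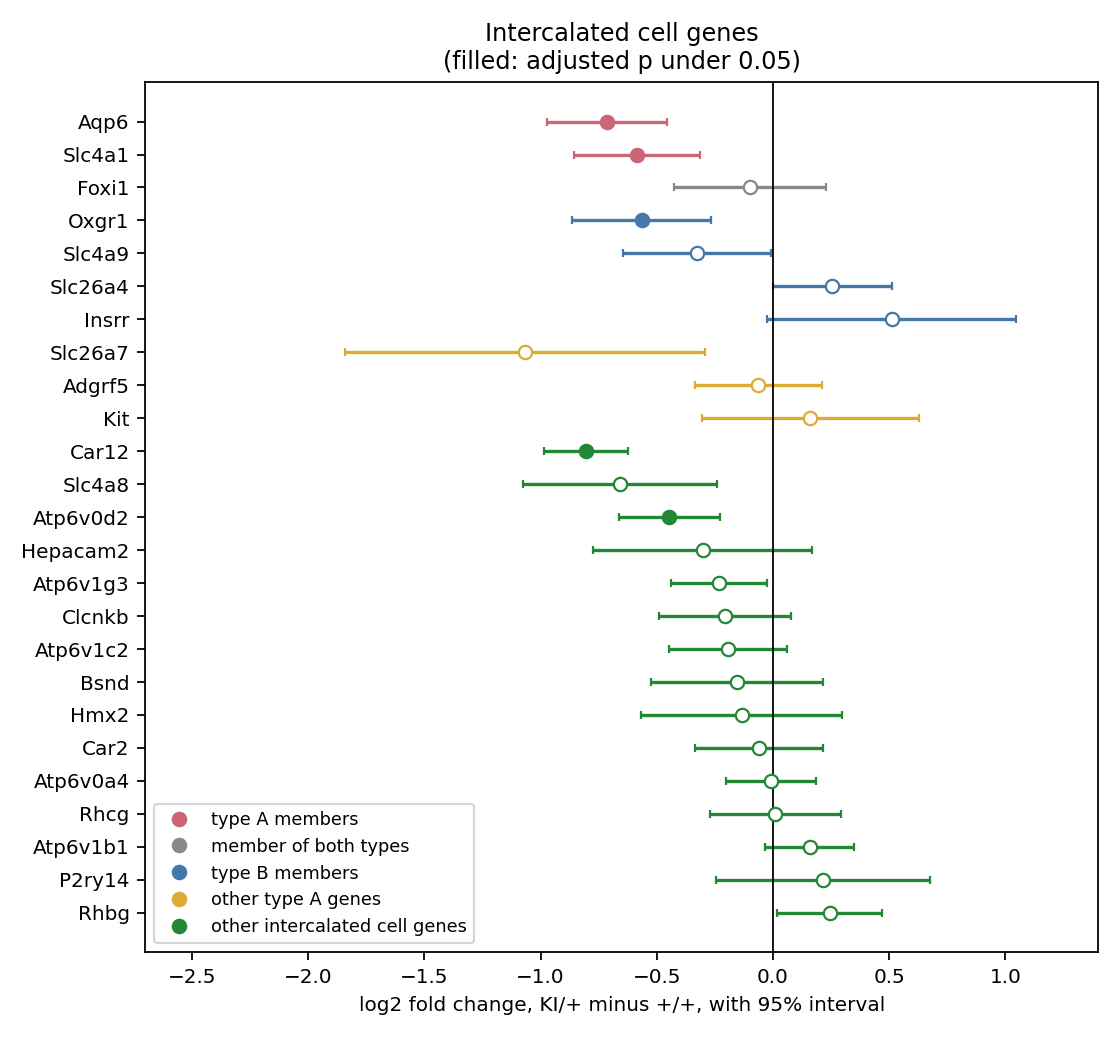
Log2 fold change of KI/+ against +/+ kidneys (x axis, with 95% interval) for the 7 genes and the other intercalated cell genes measured, coloured by type and filled where the adjusted p was under 0.05. Aqp6, Slc4a1, Oxgr1, Car12 and Atp6v0d2 are the filled points and all lie below 0.

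By protein family, few of the exchangers passed the test. Of 9 SLC4 family genes tested, 1 was lower, Slc4a1 itself, with a median log2 difference of -0.33. Slc4a11 differed by -0.57 (adjusted p = 0.0795) and Slc4a4, the sodium bicarbonate cotransporter of the proximal tubule, by 0.26. Of 6 SLC26 family genes tested, 0 passed. The widest difference there was that of Slc26a6, at 12.47 to 24.01 normalized counts in +/+ and 26.02 to 91.47 in KI/+ mice, with a log2 difference of 1.14 (adjusted p = 0.0552). Of 8 aquaporins, 1 was lower, Aqp6, while 6 of the 8 had a positive log2 difference and the median was 0.24. Aqp2 and Aqp3, the water channels of principal cells, differed by 0.54 (adjusted p = 0.0887) and 0.48 (adjusted p = 0.051).

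Principal cells are the neighbours of intercalated cells in the same ducts. Of 9 principal cell genes, 2 were higher, 0 were lower and the median log2 difference was 0.43. A positive difference was seen for 8 of the 9, and Aqp4 was at -0.15 (adjusted p = 0.694). Avpr2, the vasopressin receptor, had 107.8 to 153.4 normalized counts in +/+ and 193.4 to 291.8 in KI/+ mice, and rose by 0.88 on the log2 scale (adjusted p = 7.56e-04). Hsd11b2, which inactivates glucocorticoids in aldosterone target cells, rose by 0.43 (adjusted p = 0.0478). The summed level of the list was 2272 to 2659 in +/+ and 2770 to 4393 in KI/+ kidneys, without overlap. The highest sum was that of KI/+ mouse 5, and the other 4 KI/+ kidneys had 2770 to 3136. Without that mouse 1 gene of the list passed, Avpr2 at 0.84 (adjusted p = 0.00188), while Hsd11b2 was at 0.36 (adjusted p = 0.106) and the median was 0.35.

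Other tubule segments moved as well. Of 5 genes of the distal convoluted tubule, 5 were lower, with a median log2 difference of -1.20 and summed levels of 5831 to 6569 in +/+ and 1998 to 3520 in KI/+ kidneys. KI/+ mouse 5 had the lowest of these sums, and without it the sums were 2737 to 3520, 4 of the 5 genes were lower and the median was -1.12. Of 5 genes of the thick ascending limb, 2 were lower and 1 higher. Their summed levels were 28710 to 37560 in +/+ and 13250 to 21720 in KI/+ kidneys. Umod alone held 20400 to 28360 and 7760 to 13510 of these. Of 3 genes of the connecting tubule, which also holds intercalated cells, 0 passed, with a median of -0.25. All 3 were below 0, with Scnn1a at -0.35 (adjusted p = 0.0613). Of 6 proximal tubule genes 1 was higher and 1 lower, of 5 podocyte genes 1 was higher, and of 5 endothelial, 4 leukocyte and 3 urothelial genes 0 passed. Without KI/+ mouse 5 the podocyte call was lost (0 of 5), and the counts of the thick ascending limb and proximal tubule were as before. The differences of Slc4a1, Aqp6 and Oxgr1 thus stood beside calls in several other lists. Among these were 2 higher principal cell genes and 5 lower distal convoluted tubule genes. The thick ascending limb had 2 lower and 1 higher, and the proximal tubule 1 higher and 1 lower. The part of a shift in cell numbers was not tested.

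**Figure D4:**
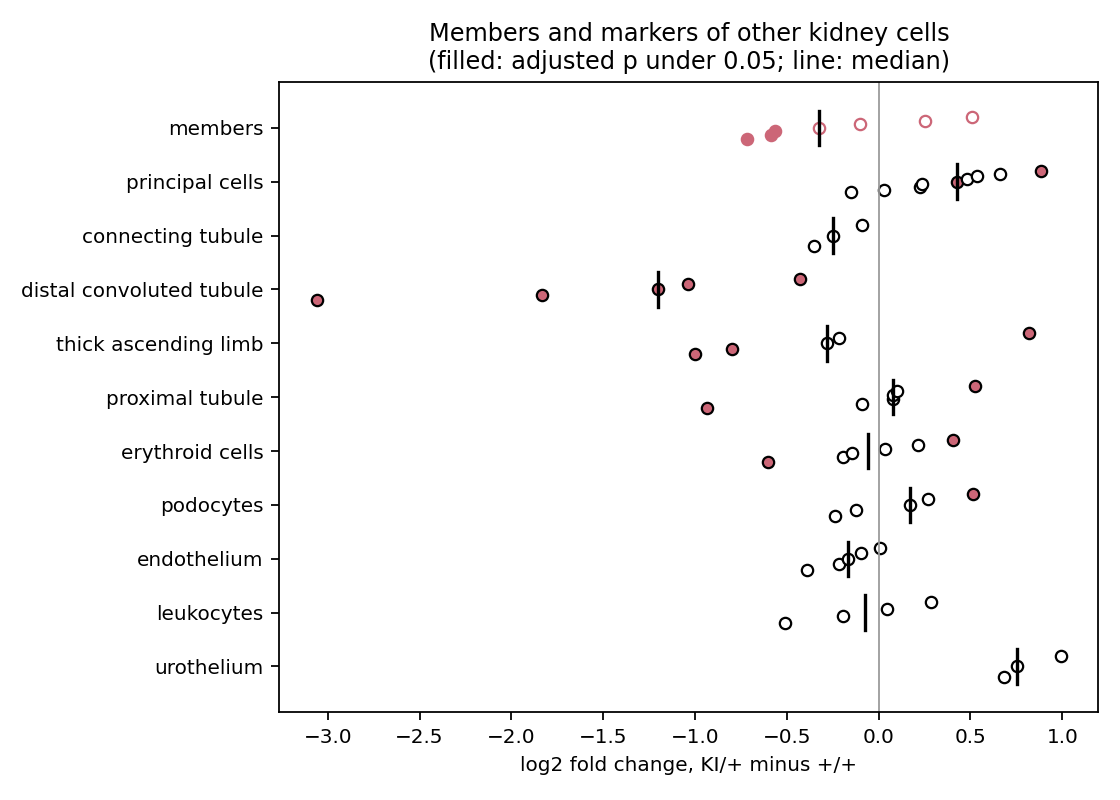
Log2 fold change of KI/+ against +/+ kidneys (x axis) for each of the 7 genes and each marker of other kidney cell types (rows), with filled points where the adjusted p was under 0.05 and a line at the median. The 7 genes spread from -0.71 to 0.51, principal cell genes have a median of 0.43 and distal convoluted tubule genes a median of -1.20.

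The 7 genes did not vary as one set among mice of a genotype. Deviations from the genotype means over the 10 mice had r = 0.80 between Slc26a4 and Slc4a9, the highest of the pairs of these genes, 0.46 between Slc4a1 and Aqp6, 0.04 between Slc4a1 and Oxgr1, and -0.50 between Aqp6 and Foxi1. These are descriptions over 10 libraries, which share depth and tissue composition within a library. Slc26a4 and Slc4a9 thus had like deviations from mouse to mouse, while their log2 differences between genotypes had opposite signs and did not pass.

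Genes whose log2 values ran closest to each of the 7 were sought among the 9136 genes that averaged 50 or more normalized counts. Closest to Slc4a1 were Sv2a (r = 0.96), Mfsd4a (r = 0.95) and Emx1 (r = 0.95), and closest to Aqp6 were Lynx1 (r = 0.97), Oxct1 (r = 0.95) and Mfsd4a (r = 0.95). Mfsd4a was the gene that appeared for both type A genes, with r = 0.79 and 0.75 once genotype means were removed. Closest to Oxgr1 were Rap1gap2 (r = 0.96), Egf (r = 0.95) and Efhd1 (r = 0.94), with r = 0.87, 0.84 and 0.82 for the deviations. Egf is a gene of the distal convoluted tubule list. Closest to Slc26a4 were Larp4b (r = 0.93), Npm3 (r = 0.91) and Cox18 (r = 0.90), to Slc4a9, among the genes reported here, Armc5 (r = 0.94) and Prpf40b (r = 0.92), to Insrr Fto (r = 0.92), Lsm3 (r = 0.90) and Tnks1bp1 (r = 0.89), and to Foxi1 Tbc1d2b (r = 0.86), Mak16 (r = 0.83) and Wdr33 (r = 0.82). All r values are over the same 10 mice and are the highest of a long search, so they carry no p.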

How the data were processed

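Whole-kidney RNA of 5 Rragc+/+ and 5 Rragc S74N/+ mice was analysed, with genotypes from the labels. The authors aligned QuantSeq 3′ reads to GRCm39 with TopHat2 2.0.10, allowing multiple hits, counted them by strand with HTSeq 0.6.1 on GENCODE vM26, and deposited a signal per gene, which is its reads over the size factor of the library. In each library 100% of values were whole reads (tolerance 0.01 reads) once multiplied by that factor. Columns without a sample numbered 0.

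Values were tested as log2(value + 1) with limma 3.58.1 (trend, two-sided) in R 4.3.3, in the 13197 genes that reached 10 normalized counts in 5 or more mice, adjusted by Benjamini-Hochberg over all of them at a threshold of 0.05. The test called 487 genes. As alternatives on recovered reads, edgeR 4.0.16 called 480 genes and DESeq2 1.42.0 648. Ratios used scipy 1.17.1, with all 252 splits of the mice. Low counts limit Insrr and Foxi1, and PCR reads are not independent molecules. The limma, edgeR and DESeq2 fits were also run on counts simulated with the spread of these data and no effect of code run. The outcome is not reported here and is not used in support of any call.

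The 7 genes and all gene lists were chosen with earlier results of these data known. Named genes are the 7, Rragc, members of the lists that passed, and the 3 genes most alike to each of the 7 over the 10 mice. A gene covered by this rule is not reported here. Other list members given with values, such as Slc26a7, Slc4a8, Slc26a6 and Atp6v1b1, were chosen after their values were seen. Alternatives were other pseudocounts, filters and scalings, other variance models, the code run as a covariate, the second run alone, and leaving out each mouse. The gene lists were recounted without KI/+ mouse 5, which was added after the values were seen.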

Additional observations from a re-analysis of the deposited data

Results flagged for a closer look

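In 32 groups of 5 mice, values were checked for a mouse far from the others of its genotype, and 5 were found. Chance gives about 1 in 20 groups. Aqp6 was lowest in +/+ mouse 4, at 244.4 normalized counts. Foxi1 was highest in +/+ mouse 1, at 63.9 normalized counts. The log2 ratio of Slc4a1 to Slc26a4 was highest in +/+ mouse 3, at -0.11, and so was that of Slc4a1 to Slc4a9, at 0.37. The log2 ratio of Slc4a1 to Oxgr1 was lowest in KI/+ mouse 2, at -0.65. Mouse 3 of the +/+ group carries both of the ratios named for it. In that mouse Slc26a4 and Slc4a9 were at their lowest for that genotype, and Slc4a1 was at its highest (148.6 normalized counts). With each of these mice left out, the calls of Aqp6 and of the ratio of Slc4a1 to Slc26a4 held. The call of that ratio could not be lost in this way, because its genotypes did not overlap.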

How the results depend on the processing

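Slc4a1 and Aqp6 stayed lower and past the threshold in 12 of 12 other settings and in 10 of 10 fits without a mouse, with adjusted p up to 0.0422 and 0.0219. Leaving out a mouse moved the log2 difference from -0.65 to -0.52 for Slc4a1 and from -0.79 to -0.65 for Aqp6. Oxgr1 did not pass with limma without the trend (-0.57, adjusted p = 0.0741) or in the second code run alone (-0.63, adjusted p = 0.0908), and ranged from -0.67 to -0.47 without a mouse, passing in 3 of 10 fits. Foxi1 changed sign in the second run alone, at 0.013 (adjusted p = 0.982). The 4 ratios that passed did so in 10 of 10 fits without a mouse. Their genotypes did not overlap, so leaving out a mouse could not end the call, and these fits do not test it. In the second run alone the 4 ratios were -0.95, -1.32, -1.03 and -1.40, where 3 against 4 mice cannot pass. Without a mouse, Slc4a1 to Slc4a9 ranged from -0.39 to -0.13 and Aqp6 to Slc4a9 from -0.58 to -0.26, each passing only without KI/+ mouse 3. Slc4a1 to Oxgr1 ranged from -0.084 to 0.14, being positive without +/+ mouse 1 (0.03), +/+ mouse 3 (0.02) or KI/+ mouse 2 (0.14). The cause of these changes was not tested. Over all genes, limma without the trend called 291 genes with 103 higher, and the covariate for the code run called 832 with 434 higher. Leaving out a mouse gave 295 to 466 calls, 121 to 222 higher and 174 to 267 lower. The fewest, 310 and 295, came without +/+ mice 4 and 5. Under other scalings the median of all genes was -0.0043 to 0.0022, beside 0.0005 in the main fit, and the direction of each of the 7 genes held. Insrr was left out by the filter on a mean of at least 50. Depth limits Insrr, with 16 to 49 reads a library.
Mice were not paired, since the labels give them no replicate numbers and the numbers used here follow the order of accession.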
